A study of Mus musculus with 12 samples.

Results

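Neutrophil transcripts of Hmgb1ΔMye mice given lipopolysaccharide (LPS) were compared with those of wild-type (WT) mice given the same LPS. The comparison used the 3 libraries labelled KO-LPS and the 3 labelled WT-LPS, 6 of the 12 libraries of the series, and every one of the 9374 genes in the deposited table of normalized expression. KO stands here for the Hmgb1ΔMye label. The name ΔMye is in use for deletion in myeloid cells, and the promoter that drives the recombinase was not given in the sources used here, nor were the strain background, the age and whether the WT mice were littermates. All 12 libraries came from blood neutrophils of female mice. Both LPS groups received 0.5 mg/kg LPS, with neutrophils taken after 16 hours, and the WT-Saline and KO-Saline groups, with 3 libraries each, received saline. Whether each library stands for its own mouse is not stated. The p-values therefore measure only how far these samples scatter, and that scatter may be technical.

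HMGB1 is an abundant chromatin protein that bends DNA in the nucleus and acts as an alarm signal once it leaves the cell, where it is sensed by Toll-like receptors and the receptor encoded by Ager. LPS, from the outer membrane of Gram-negative bacteria, is sensed by Toll-like receptor 4, which starts NF-κB signalling and, through interferon beta, STAT2 and IRF9, the interferon-stimulated genes. Neutrophils are short-lived phagocytes whose granule proteins are mostly made in the bone marrow, and inflammation releases younger cells that still hold granule protein transcripts into the blood.

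No gene passed the test between KO-LPS and WT-LPS, with or without the 1 KO-LPS library that stood apart. Interferon-stimulated genes were lower in KO-LPS as a list, with a median difference of -0.46 on the log2 scale, and among them Stat2, Rsad2, Ifit1 and Isg15 were lower in all 3 KO-LPS libraries than in any WT-LPS library, without passing. Rarg, a retinoic acid receptor gene, had the smallest p on the lower side and Cnnm2, a magnesium transport gene, on the higher side. The medians of the specific granule genes and of the immediate-early genes changed sign when the library that stood apart was left out. With limma (moderated test on log2 values, Benjamini-Hochberg adjustment over 9374 genes, call at adjusted p under 0.05) 0 genes were called, 0% of those tested, and the smallest adjusted p was 0.53. An unadjusted p under 0.05 was found for 471 genes, 5.02% of those tested, of which 257 were higher (2.74%) and 214 lower (2.28%) in KO-LPS. The 3 KO-LPS values lay all above or all below the 3 WT-LPS values for 918 genes (9.79%), 405 higher (4.32%) and 513 lower (5.47%). The LPS libraries held 399712 to 524379 reads over the listed genes, and the median gene had 11.33 reads a library. Over all genes the median difference was -0.01 on the log2 scale, with a median standard error of 0.71. The 95% interval of the difference lay within a 4-fold change either way for 50.8% of all genes, and for 86% of the 5240 genes with a mean of at least 20 CPM (a gene's reads scaled to the size of its library). Within a 2-fold change either way it lay for 34.6% of those 5240 genes, and for the others it reached past a 2-fold change.

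KO-LPS replicate 1 stood apart from the other LPS libraries. Its log2 values over the 5240 genes correlated at r = 0.850 to 0.870 with the WT-Saline libraries and at 0.838 to 0.881 with the KO-Saline libraries, but at 0.743 to 0.756 with the other KO-LPS libraries and at 0.751 to 0.782 with WT-LPS. KO-LPS replicates 2 and 3 correlated at 0.902 with each other and at 0.871 to 0.900 with WT-LPS. The median standard deviation of a gene among KO-LPS libraries was 0.47 on the log2 scale, and 0.28 without replicate 1, against 0.36 in WT-LPS. Lcn2, which encodes the iron-siderophore binding granule protein lipocalin 2, gave 867 CPM in KO-LPS replicate 1 and 7236 and 7569 CPM in replicates 2 and 3, against 315 to 667 CPM over the 6 saline libraries. Nothing in the labels sets this library apart. Of the LPS libraries it had the fewest reads (399712) and the most genes at 0 reads (12.62%, against 6.93 to 9.69% in the others). In the saline libraries 9.08 to 19.19% of genes were at 0 reads. The part of depth in its profile was not tested. Its label was kept, and for most named genes differences fitted without it are given beside those fitted with it. Some genes named only from the fit without it have that difference alone, or none. Without this library limma again called 0 genes (0%), and the smallest adjusted p was 0.0776. An unadjusted p under 0.05 was found for 457 genes (4.88%), 177 higher (1.89%) and 280 lower (2.99%). The 2 remaining KO-LPS values then lay outside the range of WT-LPS for 1960 genes (20.9%), 999 higher (10.7%) and 961 lower (10.3%).

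**Figure D1:**
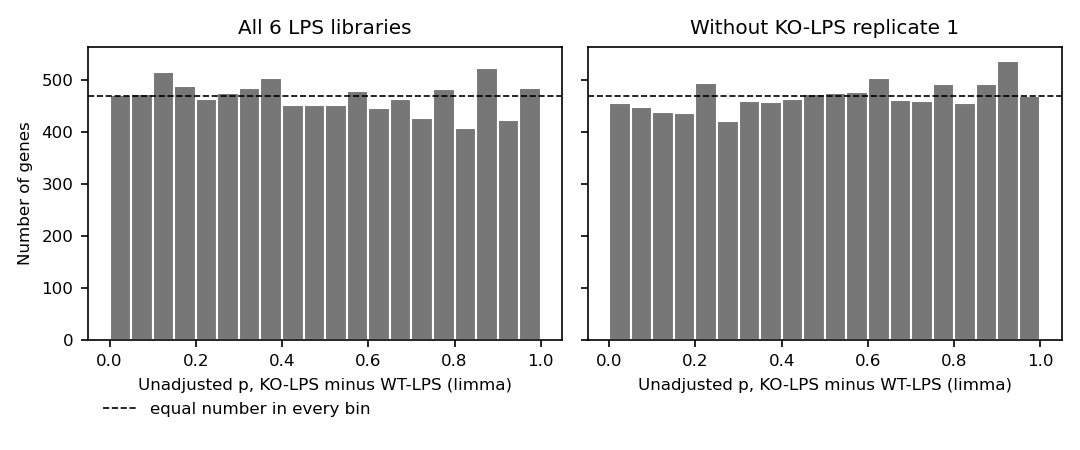
Number of genes by unadjusted limma p (x axis, 20 equal bins of 0.05) for KO-LPS minus WT-LPS with all 6 LPS libraries (left) and without KO-LPS replicate 1 (right); the dashed line is the number each bin would hold if the 9374 genes were spread evenly. The lowest bins hold 471 and 457 genes, close to the dashed line.

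Hmgb1 itself, on chromosome 5 from 149046702 to 149184489 on the minus strand (mm10), had overlapping levels in the libraries of both labels. It had 14, 15 and 34 reads in the WT-LPS replicates and 6, 30 and 16 in the KO-LPS replicates, which came to 42.7 ± 17.8 CPM (SD, n = 3) and 41.4 ± 29.7 CPM (SD, n = 3). The groups overlapped, and the highest library was KO-LPS replicate 2 at 74 CPM. The fitted difference was -0.21 ± 0.57 (log2, SE), with a 95% interval from -1.38 to 0.95 and a limma adjusted p of 0.992, and without KO-LPS replicate 1 it was 0.31 ± 0.57. Reads in the rest of the gene would not reveal a deletion of only some exons, and exons of Uspl1 on the opposite strand overlap those of Hmgb1, so this level does not check the genotype labels. Of 15 listed high-mobility group genes 8 were in the table, with a median difference of 0.24 (all genes -0.01), and of -0.04 without KO-LPS replicate 1. Hmgb2, the closest paralogue, had a difference of 0.29 ± 0.37 and -0.05 ± 0.37 in those fits.

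The signs of the neutrophil label were present in both groups. All 16 mature neutrophil markers were in the table, with a summed level of 18043 to 21007 CPM in WT-LPS and 20402 to 23070 CPM in KO-LPS. Markers of other cells were listed in part: 4 of 19 T and NK cell, 1 of 12 B cell, 2 of 11 erythroid and 4 of 13 platelet markers. Ms4a1, Cd3e, Pf4 and Ppbp were not among them. Of the monocyte and macrophage markers 8 of 16 were listed, and of the dendritic cell markers 8 of 14. The monocyte and macrophage markers had the largest of these sums, 808 to 1088 CPM in WT-LPS and 539 to 893 CPM in KO-LPS. The T and NK cell markers summed to 236 to 341 CPM in WT-LPS and 234 to 285 CPM in KO-LPS. The platelet markers summed to 523 CPM in KO-LPS replicate 1 and to 180 to 282 CPM in the other LPS libraries. In the saline libraries they summed to 537 to 895 CPM. The 8 listed markers of immature neutrophils and progenitors summed to 555 CPM in KO-LPS replicate 1 and to 3284 to 6509 CPM in the other LPS libraries. In the saline libraries they summed to 95.1 to 882 CPM. In such bulk samples fewer cells of a type and less RNA per cell cannot be told apart.

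The interferon-stimulated genes, the antiviral and signalling genes induced by interferons, had lower values in KO-LPS as a list, although no single member passed the test. Of 68 listed genes 59 were in the table. Their mean level on the log2 CPM scale was 7.30, 7.15 and 6.92 in the WT-LPS replicates and 6.32, 6.86 and 6.64 in the KO-LPS replicates. The groups did not overlap, as was so for 9.79% of all genes taken singly. In saline the mean level of the list was 5.29 to 5.43 in WT and 5.11 to 5.55 in KO. KO-LPS replicate 1, lowest of the LPS libraries, was still above every saline library. The fitted difference was below 0 for 51 of the 59 members and above 0 for 8, where 50.6% of all genes were below and 49.4% above 0. The median difference was -0.46, against -0.01 over all genes. All 3 KO-LPS values lay below all 3 WT-LPS values for 15 members, 25.4% of 59 (5.47% of all genes), and above them for 0. The members were measured in the same libraries and are not independent, so such counts do not act as replicates. The list was chosen with earlier results of these data known. An unadjusted limma p under 0.05 was reached by 9 members, each lower in KO-LPS (2.28% of all genes were lower at that p), and 0 were called. With KO-LPS replicate 1 left out the median was -0.34, with 48 members below 0 (48.7% of all genes) and 11 above (51.3%), and 17 members were lower without overlap and 2 higher (10.3% and 10.7% of all genes). Between the saline groups the same list had a median of 0.10, with 34 members higher in KO (48.9% of all genes) and 25 lower.

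**Figure D2:**
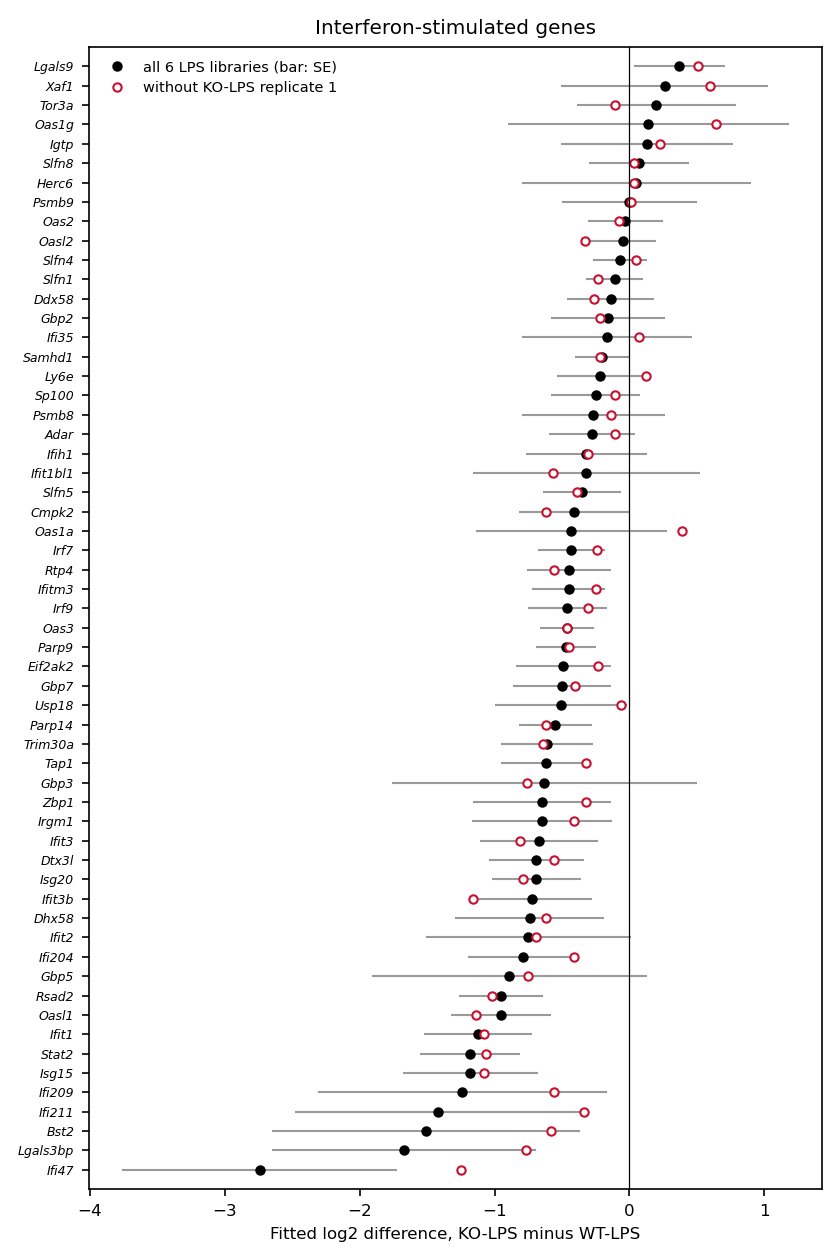
Fitted log2 difference between KO-LPS and WT-LPS (x axis) for 58 of the 59 interferon-stimulated genes in the table (y axis, ordered by difference), with the standard error as a bar. Filled points use all 6 LPS libraries and open points leave out KO-LPS replicate 1; 50 filled points and 47 open points lie left of 0.

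Interferon-stimulated genes often carry the interferon-stimulated response element before their start, to which a complex with STAT2 and IRF9 binds. Its core letters GAAANNGAAA were searched on both strands in the 250 bases before the RefSeq gene start (GRCm38.p6). They were found in 936 of 27025 genes (3.46%) and in 22 of the 48 list members with a window (45.8%). Of the 15 members lower without overlap, 13 had a window and 6 of these held the letters, against 16 of the other 35. The search and the genes shown were chosen after their values were seen. The 130 bases before the start of 3 of these members are printed, 5′ to 3′ on the gene's strand, with each match on either strand in capitals (TTTCNNTTTC is a match on the other strand). They cover chr19:34640759-34640888 on the plus strand for Ifit1, chr4:156200819-156200948 on the minus strand for Isg15 and chr12:26456453-26456582 on the minus strand for Rsad2.
Ifit1: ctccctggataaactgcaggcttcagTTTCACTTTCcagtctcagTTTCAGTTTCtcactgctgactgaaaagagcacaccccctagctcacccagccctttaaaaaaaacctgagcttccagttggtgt
Isg15: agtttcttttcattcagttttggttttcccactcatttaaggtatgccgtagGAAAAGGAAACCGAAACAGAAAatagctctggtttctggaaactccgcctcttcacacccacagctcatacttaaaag
Rsad2: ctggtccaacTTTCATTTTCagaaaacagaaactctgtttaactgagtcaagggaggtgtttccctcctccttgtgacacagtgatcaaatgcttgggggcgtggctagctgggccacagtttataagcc
Ifit1 holds 2 separate matches, Isg15 a run of 3 overlapping ones and Rsad2 a single match further from the start. A match describes the letters and is not a binding site shown by these data.

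Stat2, a signalling gene of the type I interferon response, had the smallest p of the list. Its level was 201, 173 and 173 CPM in WT-LPS and 66.7, 71.6 and 105 CPM in KO-LPS, so every KO-LPS library was below every WT-LPS library, including KO-LPS replicates 2 and 3. In saline it was 38.9 ± 6.7 CPM (SD, n = 3) in WT and 52.1 ± 24.7 CPM (SD, n = 3) in KO. The difference was -1.18 ± 0.37, with a 95% interval from -1.94 to -0.42 (limma adjusted p = 0.838), and -1.06 ± 0.40 without KO-LPS replicate 1. Irf9, whose protein binds STAT2, had a difference of -0.46 ± 0.29 and Irf7, which amplifies interferon production, of -0.43 ± 0.25; both overlapped between the groups, and without KO-LPS replicate 1 the values were -0.31 ± 0.31 and -0.24 ± 0.25.

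Rsad2, encoding the antiviral enzyme viperin, had 581, 430 and 256 CPM in WT-LPS and 227, 232 and 167 CPM in KO-LPS. The groups did not overlap, although WT-LPS replicate 3 came close to the KO-LPS libraries. The difference was -0.95 ± 0.31 (limma adjusted p = 0.856), and -1.02 ± 0.31 without KO-LPS replicate 1. Ifit1, whose protein binds viral RNA caps, and Isg15, a ubiquitin-like modifier, were picked for the text after their values were seen. Ifit1 was at 457, 415 and 379 CPM in WT-LPS and at 181, 289 and 133 CPM in KO-LPS, a difference of -1.12 ± 0.40, and -1.08 ± 0.41 without KO-LPS replicate 1. Isg15 was at 149, 112 and 108 CPM in WT-LPS and at 45.4, 88.8 and 36.4 CPM in KO-LPS, a difference of -1.18 ± 0.50, and -1.08 ± 0.54 without that library. For both genes all KO-LPS libraries were below all WT-LPS libraries, and KO-LPS replicate 3 was the lowest. In saline Ifit1 stood at 69.9 ± 20.4 CPM (SD, n = 3) in WT and 48.2 ± 31.6 CPM (SD, n = 3) in KO.

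The list was not uniform. The other members at an unadjusted p under 0.05, Oasl1 (-0.95 ± 0.37), Isg20 (-0.69 ± 0.33), Parp9 (-0.47 ± 0.22), Oas3 (-0.46 ± 0.20) and Ifi47 (-2.74 ± 1.02), spanned a wide range and were likewise named after their values were seen. Without KO-LPS replicate 1 Oasl1 had -1.14, Isg20 -0.79, Parp9 -0.45 and Oas3 -0.46. Oas3, which makes the 2-5A second messenger of antiviral defence, was the tightest, at 879, 766 and 818 CPM in WT-LPS against 587, 619 and 575 CPM in KO-LPS. The value of Ifi47 leaned on KO-LPS replicate 1, where it had 0 reads, and was -1.25 ± 0.90 without it. Parp9 shares exonic bases with Dtx3l on the opposite strand, Oasl1 with Gm13822 and Ifi47 with Gm12188, so these 3 values are uncertain. At the other end Lgals9 (0.37 ± 0.34) and Xaf1 (0.26 ± 0.77) were not lower, and Slfn4 was at 3759 ± 792 CPM (SD, n = 3) in WT-LPS and 3560 ± 557 CPM (SD, n = 3) in KO-LPS, a difference of -0.07 ± 0.20. These 3 genes had 0.51, 0.60 and 0.05 without KO-LPS replicate 1.

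**Figure D3:**
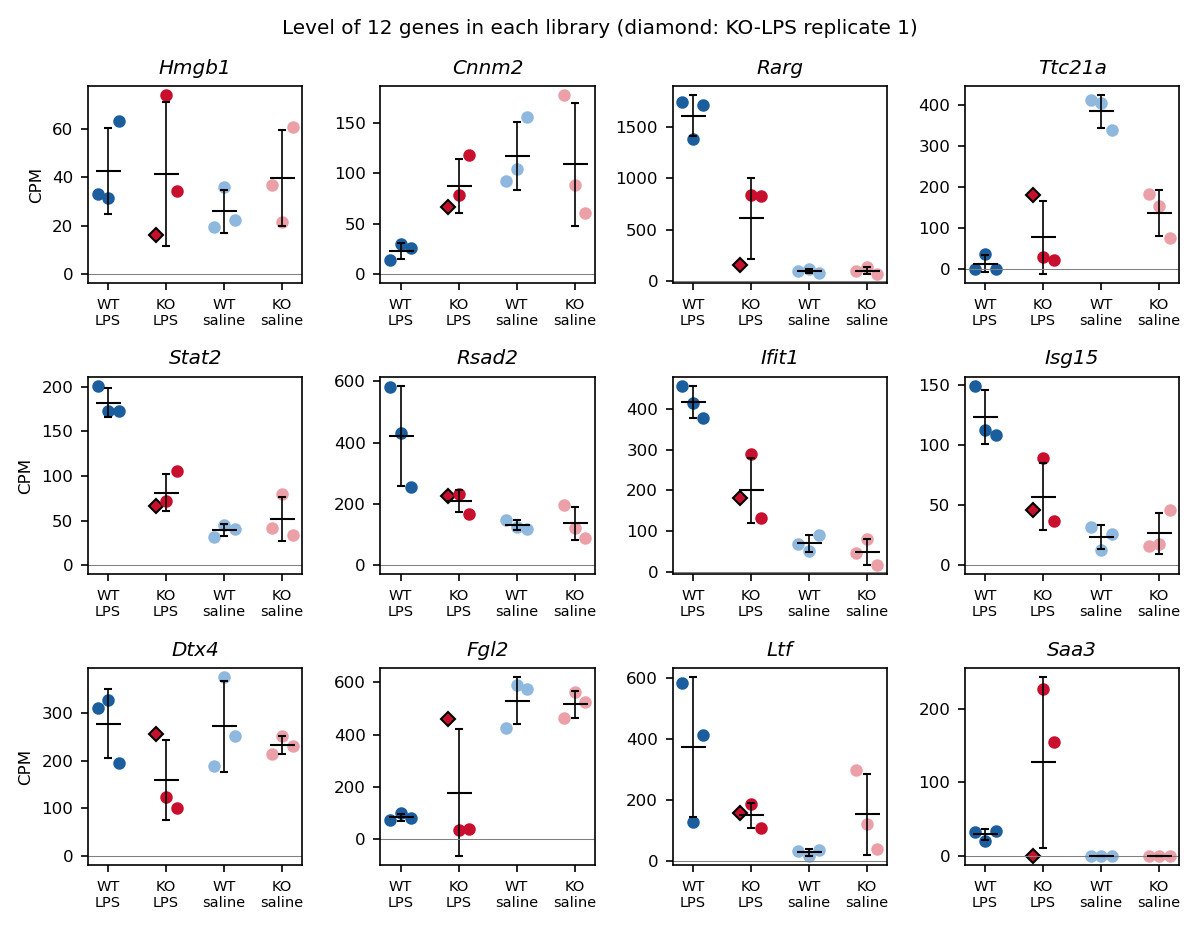
Level in CPM (y axes, linear, one scale a gene) of 12 genes in every library, with the mean and SD of each group of 3; colours mark the groups and the diamond is KO-LPS replicate 1. Stat2, Rsad2, Ifit1 and Isg15 are lower in all 3 KO-LPS libraries than in any WT-LPS library, whereas for Fgl2, Ttc21a and Saa3 the diamond sits apart from the other KO-LPS libraries.

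Rarg, which encodes retinoic acid receptor gamma, had the smallest p among genes lower in KO-LPS. It was at 1740, 1379 and 1712 CPM in WT-LPS and at 157, 841 and 825 CPM in KO-LPS, and at 96 ± 20 CPM (SD, n = 3) in WT-Saline and 99.7 ± 33.8 CPM (SD, n = 3) in KO-Saline. The LPS groups did not overlap: KO-LPS replicate 1 was near the saline libraries and the other KO-LPS libraries lay between. The difference was -1.74 ± 0.39, with a 95% interval from -2.55 to -0.93 (limma adjusted p = 0.53), and -0.94 ± 0.25 without KO-LPS replicate 1 (adjusted p = 0.486). With limma's precision weights on the recovered reads Rarg alone was called, at an adjusted p of 0.024. With those weights and without KO-LPS replicate 1 it was 1 of 3 genes called, at a limma adjusted p of 0.000647.

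Rnf213, a large E3 ubiquitin ligase, was at 1225, 930 and 883 CPM in WT-LPS and 475, 674 and 583 CPM in KO-LPS, without overlap. The difference was -0.81 ± 0.22 (limma adjusted p = 0.53), and -0.68 ± 0.21 without KO-LPS replicate 1. The long non-coding gene A930037H05Rik lies on the opposite strand within it and had the same difference, -0.81 ± 0.21 (-0.80 ± 0.19 without KO-LPS replicate 1), from 2684 ± 523 CPM (SD, n = 3) to 1536 ± 345 CPM (SD, n = 3). With precision weights and without KO-LPS replicate 1 A930037H05Rik was called (limma adjusted p = 0.000984). The strand setting of the counting was not given in the sources used here, and 74.2% of the 229 long non-coding genes that overlap a coding gene in the table had more reads than that gene, so reads of the pair may be assigned to either gene. Plec, encoding the cytoskeletal linker plectin, was at 1415, 1166 and 1479 CPM in WT-LPS and 611, 925 and 879 CPM in KO-LPS, a difference of -0.76 ± 0.22, and -0.58 ± 0.20 without KO-LPS replicate 1. Plin2, which coats lipid droplets, had 194, 164 and 171 CPM against 16, 83.9 and 107 CPM, a difference of -1.71 ± 0.55, and -0.88 ± 0.47 without KO-LPS replicate 1. Its WT-LPS libraries were close together and all 3 KO-LPS libraries lay below them, replicate 1 the furthest. The other 5 genes of smallest p on the lower side were BC048671, Ovol1, Ccdc88b, Lancl2 and Foxj2, with differences from -2.0 to -0.80. None of the 5 overlapped between the groups. Of all genes 5.47% were lower without overlap, and choosing by small p favours such genes, so this is no added evidence. The 5 differences ran from -1.81 to -0.62 without KO-LPS replicate 1, and BC048671 went from -1.75 to -1.16. Ovol1 and Foxj2 share exonic bases with genes on the opposite strand.

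Cnnm2, a magnesium transport protein gene, had the smallest p of all genes. It was at 14.2, 29.5 and 26 CPM in WT-LPS and at 66.7, 79 and 118 CPM in KO-LPS, from 6 to 14 reads against 25 to 55 reads. The groups did not overlap, with KO-LPS replicate 1 the lowest of its group. The difference was 1.89 ± 0.42, with a 95% interval from 1.04 to 2.74 (limma adjusted p = 0.53), and 2.07 ± 0.44 without KO-LPS replicate 1 (adjusted p = 0.0776). In saline the gene was at 117 ± 34.4 CPM (SD, n = 3) in WT and 109 ± 61.4 CPM (SD, n = 3) in KO. Nipal4, another gene of a magnesium transporter family, was at 9.48, 6.33 and 13 CPM in WT-LPS and 50.7, 34.5 and 36.4 CPM in KO-LPS, a difference of 2.0 ± 0.51, and 1.83 ± 0.58 without KO-LPS replicate 1. Its saline levels were 62.7 ± 18.6 CPM (SD, n = 3) in WT and 58.9 ± 22.2 CPM (SD, n = 3) in KO. For both genes the KO-LPS libraries were nearer to the saline levels than the WT-LPS libraries were.

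Txnl4b, a spliceosome-associated thioredoxin-like gene, was at 123, 238 and 156 CPM in WT-LPS and 475, 414 and 264 CPM in KO-LPS, a difference of 1.16 ± 0.31, and 0.99 ± 0.30 without KO-LPS replicate 1. Cd300ld, a myeloid surface receptor gene, had 35.6, 73.8 and 46.5 CPM against 336, 96.2 and 85.8 CPM, a difference of 1.48 ± 0.37 that was 0.86 ± 0.31 without that library. For both genes the KO-LPS libraries lay above WT-LPS, with replicate 1 the highest. Susd2 (2.48 ± 0.67), Rab11fip4 (1.56 ± 0.41) and Smu1 (1.16 ± 0.31) did not overlap either, whereas Xpc (1.64 ± 0.44), a DNA damage sensor gene, did. These 4 had 2.25, 1.27, 0.97 and 1.17 without KO-LPS replicate 1. Of all genes 4.32% were higher without overlap, and choosing by small p favours such genes. Susd2 had at most 5 reads in a WT-LPS library, and Smu1 shares exonic bases with Dnaja1.

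Ttc21a, encoding a protein of ciliary transport, had the largest difference of the 10 genes on the higher side and uneven libraries. It had 1, 18 and 1 reads in WT-LPS and 68, 12 and 11 in KO-LPS, which is 2.37, 38 and 1.86 CPM against 181, 29.6 and 23.6 CPM. The groups overlapped through WT-LPS replicate 2. The difference was 2.83 ± 0.69 (adjusted p = 0.53), and 1.92 ± 0.62 without KO-LPS replicate 1. Without WT-LPS replicate 2 the gene was called, at 4.04 and a limma adjusted p of 0.00171. Clec9a, a dendritic cell lectin gene, had 0 reads in each WT-LPS library and 21, 2 and 2 in KO-LPS. Set against the floor of 3 reads in each WT-LPS library, KO-LPS was at least 3.43-fold higher, and most of this came from replicate 1, since the other KO-LPS libraries were themselves below that floor. Adgre4, a macrophage adhesion receptor gene, had 0 reads in WT-LPS and 7, 1 and 4 in KO-LPS, at least 1.56-fold higher on the same footing. Without replicate 1 its KO-LPS mean was 5.52 CPM, below the lowest WT-LPS floor of 5.58 CPM, so no bound above 1 remained. The 8 dendritic cell markers summed to 44.6 to 90.1 CPM in WT-LPS and to 192, 27.1 and 87.9 CPM in KO-LPS. In saline these markers summed to 194 to 378 CPM, so KO-LPS replicate 1 was close to the saline libraries. Clec9a is one of them, and the other 7 summed to 136, 22.2 and 83.6 CPM in KO-LPS; their part in the Clec9a value was not tested.

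With KO-LPS replicate 1 left out, other genes led the lower side. Fgl2, a prothrombinase and secreted immune regulator gene, was at 73.5, 99.1 and 79.9 CPM in WT-LPS and 459, 37 and 40.7 CPM in KO-LPS. Its KO-LPS replicate 1 was at the level of the saline libraries, 530 ± 90.2 CPM (SD, n = 3) in WT and 516 ± 50.4 CPM (SD, n = 3) in KO, and the other KO-LPS libraries were below WT-LPS. The difference was -1.08 ± 0.26 without that library and 0.09 ± 0.51 with it. H2-Q10, a class Ib histocompatibility gene with near copies that can share its reads, was at 116, 179 and 100 CPM against 435, 49.3 and 81.5 CPM, a difference of -1.0 ± 0.28 without replicate 1 and -0.08 ± 0.44 with it. Dtx4, an E3 ubiquitin ligase gene of Notch signalling, had -1.27 ± 0.28 without replicate 1 and -0.87 ± 0.31 with it. Cfap54 (-1.93 ± 0.43), Haao (-2.11 ± 0.53), Fam114a1 (-0.89 ± 0.24), Zfp217 (-1.05 ± 0.30) and Cyren (-0.62 ± 0.18) were also on the lower side without that library, as was Rarg. All of these but Haao then lay below every WT-LPS library, as did 10.3% of all genes. Choosing by small p in that fit favours such genes, so this is no added evidence. Haao rested on KO-LPS replicate 2: with that library also left out it was at -0.48, and with replicate 3 left out instead it was at -3.74 and called (limma adjusted p = 0.000185). Cyren shares exonic bases with Tmem140.

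The higher side without KO-LPS replicate 1 held Cnnm2, Nipal4 and Txnl4b again, and Rnf216 (1.77 ± 0.49), Klhdc9 (2.71 ± 0.77), Kcnrg (0.73 ± 0.21), Ttpal (0.67 ± 0.21), Ccdc61 and Ripor3. Ttpal was at 846, 1101 and 1048 CPM in WT-LPS and at 910, 1663 and 1492 CPM in KO-LPS, with replicate 1 inside the WT-LPS range. Rnf216 and Klhdc9 share exonic bases with opposite-strand genes, and Klhdc9 had at most 7 reads in WT-LPS. Saa3, an acute-phase serum amyloid gene, was outside the naming rule and was picked after its values were seen. It had 14, 10 and 18 reads in WT-LPS, 0, 92 and 72 in KO-LPS and 0 in all 6 saline libraries. In CPM this was 33.2, 21.1 and 33.5 in WT-LPS against 227 and 154 in KO-LPS replicates 2 and 3, both above WT-LPS, while replicate 1 had none. The difference was 0.28 ± 1.30 with replicate 1 and 2.67 ± 1.08 without it (limma adjusted p = 0.908). Without replicate 1 Saa3 was called by limma under 2 alternatives. These were the fit that left out the saline libraries (adjusted p = 0.0122) and the fit with precision weights (adjusted p = 0.000423).

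The median of the specific granule genes changed sign when KO-LPS replicate 1 was left out. The 25 specific granule genes in the table, which encode proteins of the granules filled late in neutrophil maturation, had mean log2 CPM levels of 7.66, 7.55 and 7.98 in WT-LPS and 6.63, 8.08 and 7.98 in KO-LPS. The median difference was -0.12, with 11 members higher and 14 lower, and without KO-LPS replicate 1 it was 0.26, with 22 higher and 3 lower, against 0.02 over all genes. Then 11 members (44%) lay above every WT-LPS library and 1 below, where 10.7% and 10.3% of all genes did, and 0 were called. Between the saline groups the median was 0.58. Ltf, encoding lactoferrin, went the other way: it was at 581, 127 and 411 CPM in WT-LPS and 157, 188 and 107 CPM in KO-LPS. Its groups overlapped through WT-LPS replicate 2, and the difference was -1.08 ± 0.52, and -1.13 ± 0.52 without KO-LPS replicate 1. Stfa2l1, a stefin A cysteine protease inhibitor gene with close copies, was at 61.6, 52.7 and 91.1 CPM against 123, 109 and 118 CPM without overlap, a difference of 0.79 ± 0.35, and 0.75 ± 0.37 without that library. The 16 gelatinase granule and secretory vesicle genes had a median of -0.32, with 3 higher and 13 lower, and of -0.02 without KO-LPS replicate 1, with 7 higher and 9 lower. The 10 azurophil granule genes had medians of -0.01 and 0.09.

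**Figure D4:**
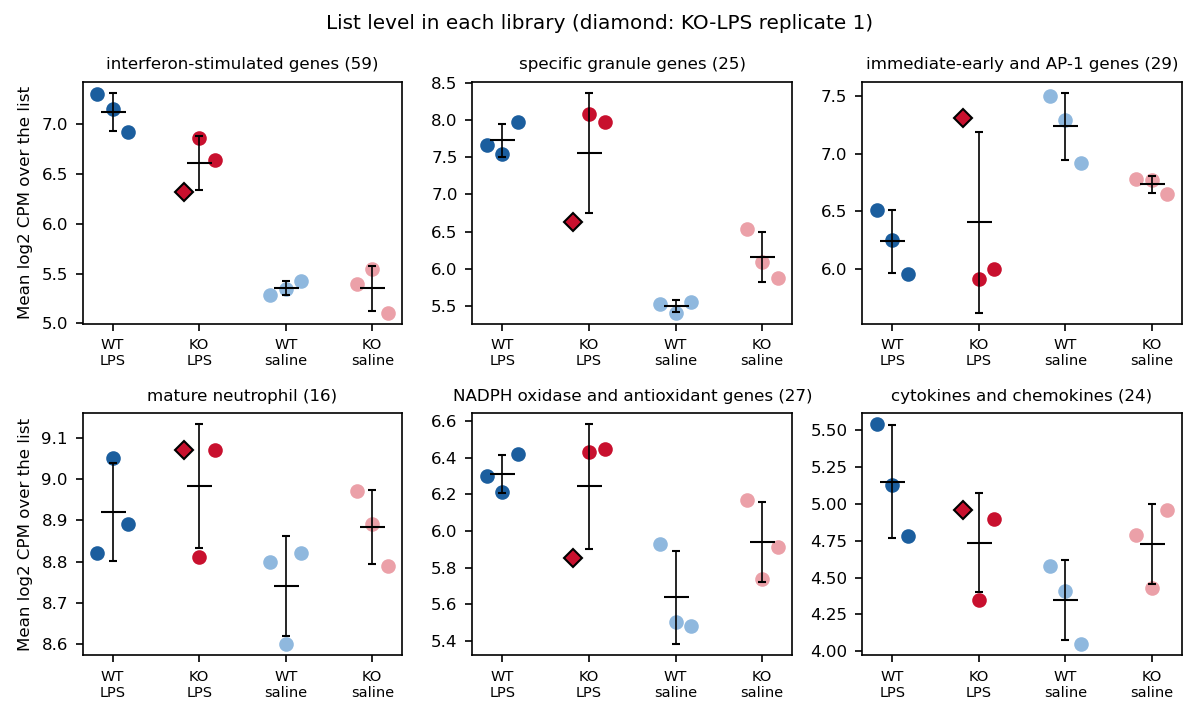
Mean log2 CPM of the members of 6 gene lists (y axes; number of genes in brackets) in every library, with the mean and SD of each group of 3; the diamond is KO-LPS replicate 1. The interferon-stimulated genes separate the LPS groups with and without the diamond, while for the specific granule and immediate-early genes the diamond stands apart from the other LPS libraries.

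The immediate-early and AP-1 genes, transcription factors and regulators that respond quickly to stimulation, likewise had a median of the other sign without that library. Their mean log2 CPM level was 6.51, 6.25 and 5.96 in WT-LPS and 7.31, 5.91 and 6.0 in KO-LPS, and the median over 29 genes was 0.15, with 17 higher and 12 lower. Without KO-LPS replicate 1 the median was -0.35, with 10 higher and 19 lower, and in saline it was -0.36. Fos, a subunit of AP-1, shows the spread: it was at 192, 82.2 and 65 CPM in WT-LPS and at 1529, 61.7 and 169 CPM in KO-LPS. Its difference was 1.32 ± 0.59 with replicate 1 and 0.02 ± 0.33 without it. Nr4a1, an orphan nuclear receptor, was at 401, 207 and 320 CPM against 88, 229 and 193 CPM, a difference of -0.91 ± 0.40 with overlap, and -0.50 ± 0.39 without replicate 1. Csrnp1 (0.95 ± 0.38, and 0.41 ± 0.35 without it) overlapped too and shares exonic bases with an opposite-strand gene.

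Along the LPS pathway itself few members stood out. The 26 Toll-like receptor and HMGB1 receptor signalling genes had a median of 0.09, with 15 higher and 11 lower, and of 0.11 without KO-LPS replicate 1. Tlr4, the LPS receptor, was at 83, 122 and 89.2 CPM in WT-LPS and 80, 121 and 124 CPM in KO-LPS, a difference of 0.14 ± 0.34 with a 95% interval from -0.56 to 0.83, and 0.34 ± 0.35 without KO-LPS replicate 1. Ager, a receptor for HMGB1, had 1 to 14 reads a library and a difference of -0.74 ± 0.81, which was 0.12 ± 0.79 without it. Irak1, a kinase below the receptors, had 6, 0 and 0 reads in WT-LPS and 13, 2 and 6 in KO-LPS, a difference of 2.56 ± 0.97 with overlap, and 1.91 ± 1.06 without it. The 14 NF-κB subunits and inhibitors had a median of -0.21 (5 higher, 9 lower), and -0.15 without KO-LPS replicate 1. Bcl3, an NF-κB co-regulator, had -0.55 ± 0.26 with overlap (-0.50 ± 0.27 without that library), and Relb -1.64 ± 0.91, which was -0.41 ± 0.80 without that library.

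Of the 24 cytokine and chemokine genes 8 were higher and 16 lower, with a median of -0.21, and of -0.40 without KO-LPS replicate 1 (7 higher, 17 lower). Ccl3, a chemoattractant for leukocytes, was at 517, 264 and 303 CPM in WT-LPS and 80, 316 and 144 CPM in KO-LPS. The groups overlapped through KO-LPS replicate 2, and the difference was -1.16 ± 0.40, and -0.69 ± 0.37 without replicate 1. Ccl9, a related chemokine, had 4, 19 and 2 reads in WT-LPS and 0, 0 and 1 in KO-LPS, which is 0.046 times the WT-LPS level (95% counting interval 0.00112 to 0.281), and 0.0658 times without replicate 1. Il1b, the proinflammatory interleukin, was picked after its values were seen: it was at 484, 392 and 245 CPM against 1731, 215 and 339 CPM, with KO-LPS replicate 1 within the range of the WT-Saline libraries (1533 to 1827 CPM). Its difference was 0.48 ± 0.42, and -0.41 ± 0.23 without that library, and Il1bos lies on its opposite strand.

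The effector lists gave small medians. The 27 NADPH oxidase and antioxidant genes had 0.01 (15 higher, 12 lower) and 0.21 without KO-LPS replicate 1. Ncf1, the p47phox subunit of the oxidase, was at 1202, 903 and 1238 CPM in WT-LPS and 347, 844 and 815 CPM in KO-LPS, without overlap, a difference of -0.83 ± 0.28, and -0.41 ± 0.23 without replicate 1. It shares exonic bases with Gtf2ird2. The 24 inflammasome and pyroptosis genes had -0.01 (-0.05 without it), and Pycard, the adaptor ASC, had 94.8, 213 and 167 CPM against 216, 234 and 227 CPM, a difference of 0.59 ± 0.27 without overlap, and 0.62 ± 0.27 without replicate 1. The 42 autophagy genes had -0.02 (19 higher, 23 lower), and -0.09 without replicate 1. Among them Map1lc3b, the LC3B autophagosome protein, was at 116, 92.8 and 85.5 CPM against 168, 138 and 144 CPM, a difference of 0.61 ± 0.28 without overlap (0.53 ± 0.30 without replicate 1), with Zcchc14 on its opposite strand. Atg3, which conjugates LC3 to lipid, had 0.94 ± 0.40, and 0.25 ± 0.33 without replicate 1. Of the autophagy genes 2 (4.76%) were higher without overlap and 3 (7.14%) lower, against 4.32% and 5.47% of all genes. In the NADPH oxidase list 1 member each way did not overlap (3.7%), and in the inflammasome list 1 each way (4.17%). These shares were near those of all genes. The 28 adhesion and chemoattractant receptor genes had -0.19 (12 higher, 16 lower), and -0.07 without replicate 1 (8 higher, 20 lower). Spn, encoding CD43, had 131, 81 and 144 reads in WT-LPS and 2, 76 and 87 in KO-LPS, a difference of -1.98 ± 0.80 that was -0.37 ± 0.52 without replicate 1.

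The heat shock and unfolded protein response list was, besides the interferon-stimulated genes, the only one of 20 role lists whose mean level did not overlap between the LPS groups. The other 18 lists overlapped. Of all genes taken singly 9.79% did not overlap, so the count of lists was near that share. The mean level of the heat shock list was 4.63, 4.67 and 4.74 on the log2 CPM scale in WT-LPS and 5.01, 4.81 and 4.83 in KO-LPS. Its median difference was 0.16 (18 of 29 higher), and 0.15 without KO-LPS replicate 1. Canx, encoding the chaperone calnexin, was the 1 member above WT-LPS in every KO-LPS library (3.45% of 29, against 4.32% of all genes), and Atf4 the 1 member below (3.45%, against 5.47%). Both were named after their values were seen, and Canx had 6, 10 and 6 reads against 14, 14 and 12. In the fit without KO-LPS replicate 1 the levels of 6 of the 20 lists did not overlap, 3 higher and 3 lower. For all genes taken singly the share without overlap was then 20.9%. The apoptosis regulators (21 genes, 0.29), cytosolic ribosomal protein genes (68 genes, 0.23), glycolysis genes (22 genes, 0.06), oxidative phosphorylation genes (38 genes, 0.00), lipid mediator genes (18 genes, -0.07) and cell cycle genes (11 genes, -0.03) had the medians given in brackets; without KO-LPS replicate 1 these were 0.20, 0.09, 0.08, -0.02, 0.13 and -0.10 in the same order. 0 members of any list were called.

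**Figure D5:**
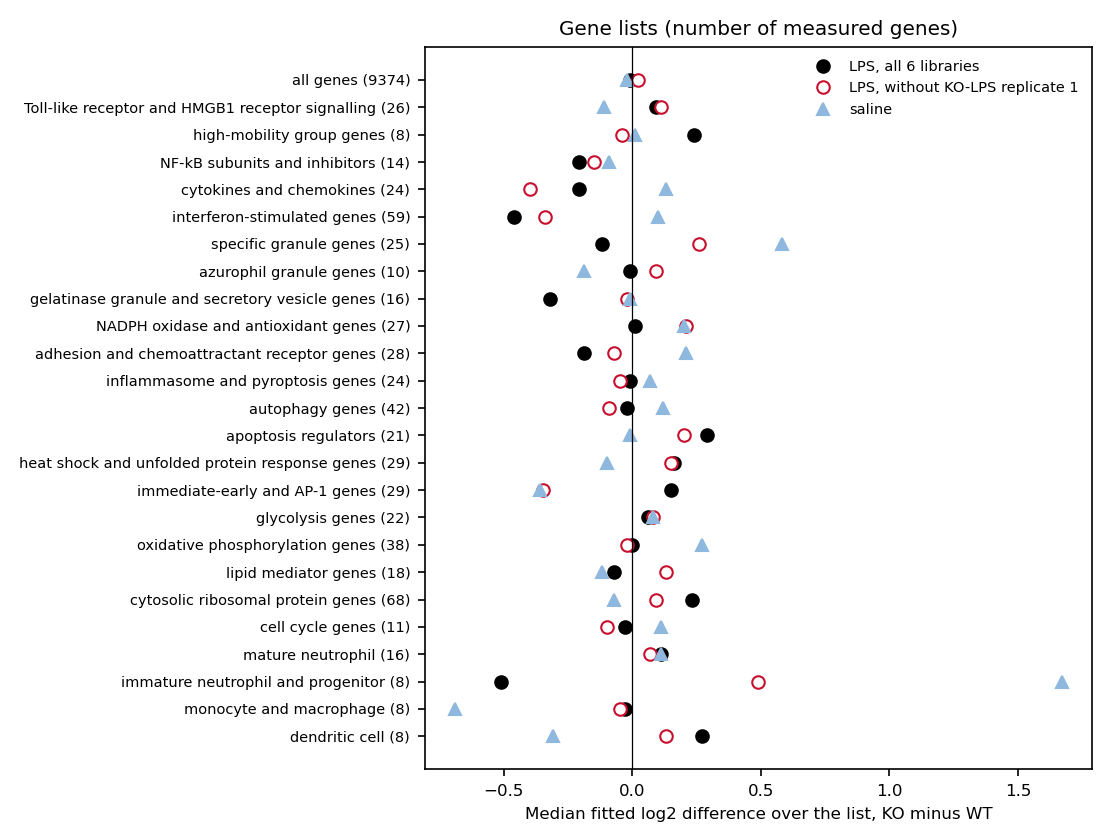
Median fitted log2 difference, KO minus WT (x axis), for each gene list with at least 8 measured genes (y axis, number in brackets) under LPS with all 6 libraries (filled circles), under LPS without KO-LPS replicate 1 (open circles) and in saline (triangles). The interferon-stimulated genes lie at -0.46 and -0.34 under LPS and at 0.10 in saline, and the specific granule genes cross 0 when KO-LPS replicate 1 is left out.

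Whether the genotype difference under LPS differed from that in saline was tested as an interaction. limma called 0 of 9374 genes (0%), with 560 (5.97%) at an unadjusted p under 0.05 and a smallest adjusted p of 0.226, and 3 genes when KO-LPS replicate 1 was left out. For Stat2 the interaction was -1.51 ± 0.53 (adjusted p = 0.773) and for Rsad2 -0.95 ± 0.43 (adjusted p = 0.82), and without KO-LPS replicate 1 -1.39 ± 0.54 and -1.02 ± 0.42. Ltf had -3.06 ± 0.73 (adjusted p = 0.292), from 29.3 ± 10.9 CPM (SD, n = 3) in WT-Saline and 153 ± 133 CPM (SD, n = 3) in KO-Saline. Without KO-LPS replicate 1 it had -3.11 ± 0.70 (adjusted p = 0.101), and with library weights it was called, at -3.35 (limma adjusted p = 0.036).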

How the data were processed

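RNA was sequenced from blood neutrophils in 12 libraries, 3 in each of 4 groups. Per the labels' protocols, RNA was taken with the miRNeasy micro kit and libraries were made with Tecan's Universal Plus Total RNA kit. The authors deposited normalized log2 values for 9374 genes by NCBI Gene ID. They have the form of log2 CPM with 0.5 added to the reads, since whole reads came back within 0.0001 for 100.0% of values in each column, with scaling factors of 0.938 to 1.044. The build was mm10, per the submitters' processing notes. The aligner, counter, annotation, strand setting and gene filter were not given in the sources used here.

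CPM and reads were computed back from the log2 values. Symbols came from RefSeq GRCm38.p6 (9372 genes matched) and exon overlaps from GENCODE M21 (9299 matched, 36.8% with exonic overlap on the opposite strand). The promoter windows are RefSeq's (GRCm38.p6). limma 3.58.1 in R 4.3.3 was fitted to the log2 values of all 12 libraries (4 group means, mean-variance trend, two-sided, Benjamini-Hochberg over all genes), and again without KO-LPS replicate 1. All 4 groups share the estimate of the spread. The procedure was tested on simulated data. Differences are on this log2 scale, whose added 0.5 reads understate those of low genes. Only for the bounds given as fold changes was a group with 0 reads in all its libraries set to a floor of 3 reads in each. The fits did not use this floor, and a library at 0 reads entered them as 0.5 reads. Intervals of ratios cover counting error only. Alternatives were other scalings, filters, weights and pseudocounts, a replicate block, and leaving out each library.

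The comparison, its members and the 20 role lists and 9 marker lists were chosen with earlier results of these data known. The genes named were Hmgb1, the 10 higher and 10 lower genes of smallest p with and without KO-LPS replicate 1 (leaving out predicted genes and those with a higher group mean below its median over all genes) and the 2 genes of smallest p in each list. Lcn2, Irf7, Irf9, Lgals9, Xaf1, Slfn4, Fos, Tlr4 and Ager fall outside this rule and were chosen after their values were seen. The same holds for A930037H05Rik, Il15, Csnk1d, Oplah and Chsy1, and the text marks other exceptions. Some genes that the rule or the lists name are not reported here.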

Additional observations from a re-analysis of the deposited data

How the results depend on the processing

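The count of called genes between KO-LPS and WT-LPS was 0 under 10 of the 11 alternative settings and 1 with voom precision weights (Rarg). Leaving out each library in turn gave 0 to 2 calls: Oplah without KO-LPS replicate 2, and Chsy1 and Ttc21a without WT-LPS replicate 2. For the comparison without KO-LPS replicate 1 the count of 0 became 1 when only LPS libraries were fitted (Saa3), 8 with library weights, 3 with a pseudocount of 5 CPM, 5 with quantile normalization, 3 with the replicate block and 3 with voom precision weights, and 0 to 5 on leaving out a further library. In that comparison D630041G03Rik was called under 4 of these settings. The interaction count of 0 became 4 with library weights and 2 with voom precision weights (Csnk1d among them), and 0 to 7 on leaving out each library: 3 without KO-LPS replicate 1, 7 without replicate 2, 6 without replicate 3 and 1 without WT-LPS replicate 2. The cause of these shifts was not tested. Where leaving out libraries left 1 KO-LPS library, it was assumed to vary like the other groups.

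Alternatives gave 2103 values of named genes. Of these 2078 kept direction and side of the threshold, 15 newly passed it and 10 reversed, over 5 genes. None could fall below the threshold, since no named gene passed it in either main fit. Leaving out a saline library, or changing only the estimate of the spread, cannot change a fitted difference. Part of the count that kept direction was therefore fixed beforehand. With library weights the reversals were Hmgb1 to 0.01, Alas2 to 0.07 and Siglecf to -0.48. On leaving out 1 library, values ran from -0.75 to 0.31 for Hmgb1, from -0.05 to 0.52 for Hmgb2, from -0.18 to 2.20 for Itgax, from -1.16 to 0.21 for Alas2 and from -0.70 to 1.5 for Siglecf. None of these 5 genes was called in any fit. Leaving out a saline library cannot move a list median, and some settings change only the estimate of the spread. The median of the interferon-stimulated genes stayed between -0.48 and -0.37 over the 11 settings and between -0.56 and -0.34 on leaving out each library. That of the specific granule genes ran from -0.14 to 0.14 and from -0.28 to 0.26, and that of the immediate-early genes from -0.09 to 0.20 and from -0.35 to 0.42.

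No pairing of the LPS libraries by replicate number was seen. Deviations from the group means correlated at -0.04 to 0.04 for same-numbered libraries over 5240 genes. For differently numbered libraries they correlated at -0.08 to 0.07. With 3 libraries a group, and KO-LPS replicate 1 weighing on the deviations of its group, this could not exclude a pairing. With the replicate block 0 genes were called for KO-LPS minus WT-LPS (465 at an unadjusted p under 0.05) and 0 for the interaction (559). The median gene had 11.33 reads a library, and the parts of depth and of scatter between libraries in the low counts of calls were not tested.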

Other observations

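D630041G03Rik, a gene passed over by the naming rule, and Pspc1, a paraspeckle protein gene, were named after their values were seen, because alternatives called them. D630041G03Rik was at 66.4, 118 and 98.5 CPM in WT-LPS and 48, 27.1 and 27.9 CPM in KO-LPS, without overlap, a difference of -1.43 ± 0.36, and -1.70 ± 0.36 without KO-LPS replicate 1 (limma adjusted p = 0.0776). Its saline levels were 160 ± 15.1 CPM (SD, n = 3) in WT and 288 ± 127 CPM (SD, n = 3) in KO, and the interaction was -2.16 ± 0.51 (limma adjusted p = 0.272). That interaction was called without KO-LPS replicate 1, at -2.42 ± 0.48 (limma adjusted p = 0.0327), and with library weights, at -2.32 ± 0.47 (adjusted p = 0.036). Pspc1 had 7, 12 and 17 reads in WT-LPS and 11, 0 and 1 in KO-LPS. The 11 reads of KO-LPS replicate 1 lay within the WT-LPS range. Without that library the ratio of Pspc1 was 0.0457, with a 95% counting interval from 0.00113 to 0.271. Il15, which encodes a cytokine that supports NK cells, had 4, 4 and 7 reads in WT-LPS and 22, 0 and 0 in KO-LPS, against 17 to 39 in the 6 saline libraries. Set against the floor of 3 reads, KO-LPS replicates 2 and 3 were at least 1.49-fold lower than WT-LPS, and replicate 1 was in the range of the saline libraries.

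Nlrp3, the inflammasome sensor, was at 94.8, 108 and 98.5 CPM in WT-LPS and 312, 49.3 and 57.9 CPM in KO-LPS, a difference of -0.05 ± 0.41, and -0.89 ± 0.27 without KO-LPS replicate 1 (limma adjusted p = 0.655). Csf3r, the receptor for the neutrophil growth factor G-CSF, was at 1382, 2134 and 1799 CPM in WT-LPS and 5386, 1431 and 1634 CPM in KO-LPS, where replicate 1 was in the range of the saline libraries (4923 to 5730 CPM). Both genes were named after their values were seen, and neither was called. Csnk1d, a casein kinase gene called for the interaction under several alternatives, was at 2865 ± 651 CPM (SD, n = 3) in WT-Saline, 1021 ± 251 CPM (SD, n = 3) in KO-Saline, 650 ± 186 CPM (SD, n = 3) in WT-LPS and 1155 ± 846 CPM (SD, n = 3) in KO-LPS. Gm28192 shares exonic bases with it on the opposite strand.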
